A study of Homo sapiens with 4 samples.

Results

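The E2F transcription factors and the retinoblastoma (pocket) proteins that hold them in check were followed in H1792, a human lung cancer cell line. The labels call its genotype wild type and name no gene. Cells received either the solvent DMSO or ACBI1 for 96 h, with 2 RNA-seq libraries in each group. ACBI1 is a PROTAC, a molecule that brings its target proteins to the VHL ubiquitin ligase for destruction. It was made against 3 subunits of the SWI/SNF chromatin remodellers: the ATPases SMARCA4 and SMARCA2, and PBRM1. The labels write the dose as 1 mM, a unit that the counts cannot check. The genes were taken by exact symbol from a list of 10: the activators E2F1 to E2F3, the repressors E2F4 to E2F8, and the pocket protein genes RB1 and RBL1. All 10 were among the 61228 gene symbols counted, and all 10 passed the filter on low counts. RNA pools all cells of a dish, so a change in the mix of cells (in the share of cycling cells, for example) and a change of RNA per cell cannot be told apart.

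E2F proteins bind short GC-rich sites in promoters of genes for DNA replication. RB1, RBL1 and RBL2 cover the activation domain of E2Fs and bring in corepressors. Cyclin-dependent kinases phosphorylate the pocket proteins, E2F1 to E2F3 are released, and cells enter S phase. E2F4 and E2F5 act mainly with RBL1 and RBL2 in the DREAM complex, E2F6 works with a Polycomb complex without binding pocket proteins, and the atypical E2F7 and E2F8 repress E2F targets late in S phase without a DP partner. RB1 is a classic tumour suppressor of lung cancer.

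Of the 10 genes, 3 were called higher with ACBI1 (E2F1, E2F2 and E2F8), 1 was called lower (E2F7) and 6 were not called. Calls were made with edgeR's quasi-likelihood test at p under 0.05 after Benjamini-Hochberg adjustment over all 19159 genes tested. Of all genes tested, 17.4% were called, 6.75% higher and 10.6% lower. The line between activators and repressors was not the line between rises and falls: the activator E2F3 was not called, and the closely related repressors E2F7 and E2F8 were called in opposite directions. The groups did not overlap for 7 of the 10 genes, which is near the 63.2% seen over all genes tested.

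Promoter windows are shown for E2F1 and E2F2, which were called higher and each hold an E2F site by sequence. Those of RBL1 and E2F3, which hold such sites and were not called, and of E2F7, which fell and holds none, are also shown. Each window has 300 bases, 250 before and 50 from the start of the gene, in RefSeq's annotation of GRCh38.p14, written 5′ to 3′ on the strand of the gene. Capitals mark matches to the E2F consensus on either strand, in the 4 forms TTTCCCGC, TTTCGCGC, TTTGCCGC and TTTGGCGC. The windows lie at chr20:33686336-33686635 (minus strand) for E2F1, chr1:23531184-23531483 (minus strand) for E2F2, chr20:37095948-37096247 (minus strand) for RBL1, chr6:20401629-20401928 (plus strand) for E2F3 and chr12:77065520-77065819 (minus strand) for E2F7.
E2F1: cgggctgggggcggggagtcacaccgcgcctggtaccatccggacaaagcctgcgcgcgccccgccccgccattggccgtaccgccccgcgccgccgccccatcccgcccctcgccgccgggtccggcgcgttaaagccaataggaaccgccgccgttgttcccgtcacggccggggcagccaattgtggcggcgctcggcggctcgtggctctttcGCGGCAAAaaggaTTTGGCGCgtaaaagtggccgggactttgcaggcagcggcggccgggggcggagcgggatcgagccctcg
E2F2: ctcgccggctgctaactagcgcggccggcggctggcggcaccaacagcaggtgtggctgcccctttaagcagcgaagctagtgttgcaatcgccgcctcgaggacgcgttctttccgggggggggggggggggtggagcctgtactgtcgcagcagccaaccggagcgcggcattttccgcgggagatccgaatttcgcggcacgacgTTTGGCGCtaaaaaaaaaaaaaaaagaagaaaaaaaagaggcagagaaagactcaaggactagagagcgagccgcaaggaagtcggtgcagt
RBL1: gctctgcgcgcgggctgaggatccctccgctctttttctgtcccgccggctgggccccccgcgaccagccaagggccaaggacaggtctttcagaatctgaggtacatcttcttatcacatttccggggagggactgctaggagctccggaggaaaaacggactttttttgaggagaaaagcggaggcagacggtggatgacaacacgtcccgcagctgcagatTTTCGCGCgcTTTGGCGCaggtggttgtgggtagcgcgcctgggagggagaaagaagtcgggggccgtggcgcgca
E2F3: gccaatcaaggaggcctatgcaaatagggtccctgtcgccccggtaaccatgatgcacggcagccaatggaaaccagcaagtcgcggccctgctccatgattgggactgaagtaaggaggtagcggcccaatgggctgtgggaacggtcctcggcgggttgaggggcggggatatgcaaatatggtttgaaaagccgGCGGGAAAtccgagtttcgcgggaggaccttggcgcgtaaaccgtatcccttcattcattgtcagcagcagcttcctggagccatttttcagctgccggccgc
E2F7: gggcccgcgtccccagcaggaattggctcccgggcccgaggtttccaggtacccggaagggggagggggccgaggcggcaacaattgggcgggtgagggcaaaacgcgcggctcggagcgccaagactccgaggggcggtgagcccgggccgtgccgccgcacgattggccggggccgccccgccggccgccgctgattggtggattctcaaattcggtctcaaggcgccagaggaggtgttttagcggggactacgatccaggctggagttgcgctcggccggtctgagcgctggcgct

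E2F1 and RBL1 each held 2 matches, in pairs close to the start: at positions -33 and -20 in E2F1 and at -26 and -16 in RBL1. E2F2 held 1 match at position -42, and E2F3 held 1 at -53 in the upstream of its 2 windows. The windows of E2F4, E2F6 and E2F7, and the second window of E2F3, held none. Of all 35116 windows in the table, 3.31% held a match, and of the 12359 tested genes with a window, 6.34% did. The RefSeq start behind the window listed for RB1 lies 172724 bases from the start of that gene in GENCODE 29, so it was not used. No window was used for E2F5 or E2F8. A match describes letters and not a bound site: E2F3 and RBL1 held matches without being called. The lack of a match in a window does not show that E2F leaves a gene unbound. The matches to the CCAAT box, on either strand, numbered 3 in E2F1, 4 in E2F7, 4 in the upstream window of E2F3 and 0 in E2F2 and RBL1, with 34.6% of all windows holding at least 1.

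Among the activators, E2F2 rose most. Levels are given as CPM, counts per 1000000 counts of the library after TMM scaling. E2F2, an activator E2F that pairs with DP proteins, was at 4.79 and 4.56 CPM in DMSO replicates 1 and 2 and at 38.7 and 41.6 CPM in ACBI1 replicates 1 and 2. Both ACBI1 libraries lay far above both DMSO libraries. The level was 8.59-fold higher with ACBI1 (edgeR log2 change 3.10, SE 0.18, adjusted p 0.00141). These values rested on 390 and 328 counts with DMSO and 3465 and 2729 counts with ACBI1. E2F2 lies at chr1:23506430-23531220 on the minus strand (GENCODE 29, GRCh38).

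E2F1, the E2F most tied to both S phase entry and cell death, had 49.2 and 37.4 CPM under DMSO and 149 and 180 CPM under ACBI1. The groups did not overlap, and the lower ACBI1 library was still above the higher DMSO library by a wide margin. The difference was 3.80-fold, a log2 change of 1.93 (SE 0.21, edgeR adjusted p 0.00485). E2F1 lies at chr20:33675683-33686404 on the minus strand.

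E2F3 stood apart from the other activators. It had 52.0 and 41.7 CPM with DMSO and 51.9 and 47.1 CPM with ACBI1, so the groups overlapped. It was not called, with a log2 change of 0.08 (SE 0.18, edgeR adjusted p 0.792) and a 95% interval from -0.35 to 0.51. That interval does not reach the changes of E2F1 and E2F2, whose intervals began at 1.42 and 2.66; the difference between genes was not tested. Without DMSO replicate 2 the log2 change of E2F3 was -0.08.

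**Figure D1:**
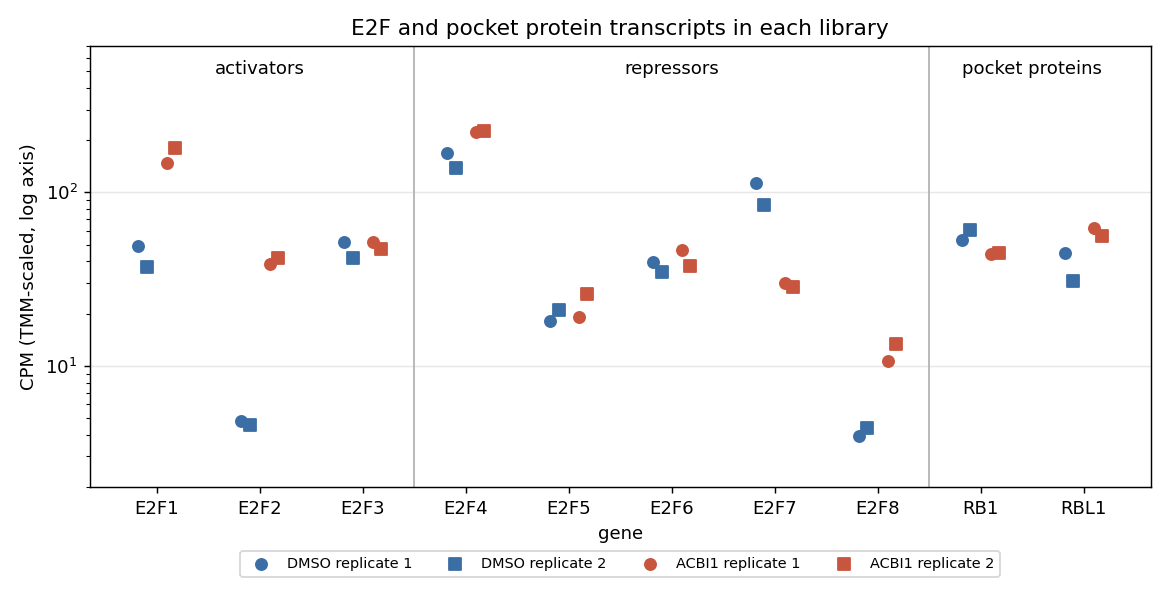
CPM (log axis) of each gene in the 4 libraries, with DMSO in blue, ACBI1 in red, circles for replicate 1 and squares for replicate 2. E2F1, E2F2 and E2F8 are higher in both ACBI1 libraries and E2F7 is lower in both, while the groups overlap for E2F3, E2F5 and E2F6.

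Among the repressors, the atypical pair moved in opposite directions. E2F7, which represses E2F targets without a DP partner, had 113 and 84.5 CPM under DMSO and 29.9 and 28.4 CPM under ACBI1. Both ACBI1 libraries lay below both DMSO libraries and close to each other. The level was 3.39-fold lower with ACBI1, a log2 change of -1.76 (SE 0.20, edgeR adjusted p 0.00519). E2F7 lies at chr12:77021247-77065580 on the minus strand.

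E2F8, the other atypical E2F and a partner of E2F7 in dimers, had 3.95 and 4.38 CPM with DMSO and 10.6 and 13.3 CPM with ACBI1. The groups did not overlap, and the difference was 2.87-fold, a log2 change of 1.52 (SE 0.25, edgeR adjusted p 0.0145). It is among the scarcer transcripts of the family, with 322 and 315 counts with DMSO and 951 and 872 counts with ACBI1. Without ACBI1 replicate 2 it was not called, at a log2 change of 1.34 and an edgeR adjusted p of 0.0605. E2F8 lies at chr11:19224063-19241620 on the minus strand.

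Per kilobase of exon, E2F7 exceeded E2F8 by 18.8 and 12.7 times in the DMSO libraries and by 1.85 and 1.40 times in the ACBI1 libraries. The excess of E2F7 over its partner was thus smaller in both ACBI1 libraries than in either DMSO library. Both transcripts together summed to 18.9 and 14.5 CPM per kilobase with DMSO and to 7.32 and 7.71 with ACBI1. E2F1 and E2F7 were near each other with DMSO, at a ratio of E2F1 to E2F7 of 1.09 and 1.11 per kilobase, and far apart with ACBI1, at 12.5 and 16.0.

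E2F4, the main E2F of resting cells and a core part of DREAM, had 168 and 139 CPM under DMSO and 224 and 225 CPM under ACBI1. Both ACBI1 libraries were above both DMSO libraries. The difference of 1.46-fold was not called, with a log2 change of 0.55 (SE 0.17, 95% interval 0.13 to 0.97, edgeR adjusted p 0.0785). E2F4 was called higher under scaling by library size only (log2 change 0.64, adjusted p 0.0439) and with DESeq2 (0.55, adjusted p 0.0459).

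E2F5, which like E2F4 acts with pocket proteins, had 18.2 and 20.9 CPM with DMSO and 19.2 and 25.9 CPM with ACBI1. E2F6, the E2F that lacks a pocket-binding domain, had 39.8 and 34.6 CPM with DMSO and 46.7 and 37.4 CPM with ACBI1. The groups overlapped for both genes and neither was called. The log2 change of E2F5 was 0.21 (95% interval -0.32 to 0.73, edgeR adjusted p 0.549) and that of E2F6 was 0.18 (95% interval -0.27 to 0.62, edgeR adjusted p 0.543). Exons of other genes, C8orf59 the most, overlap 18.6% of the exonic length of E2F5, so its counts carry some uncertainty. Without ACBI1 replicate 2 the log2 change of E2F5 was -0.03.

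**Figure D2:**
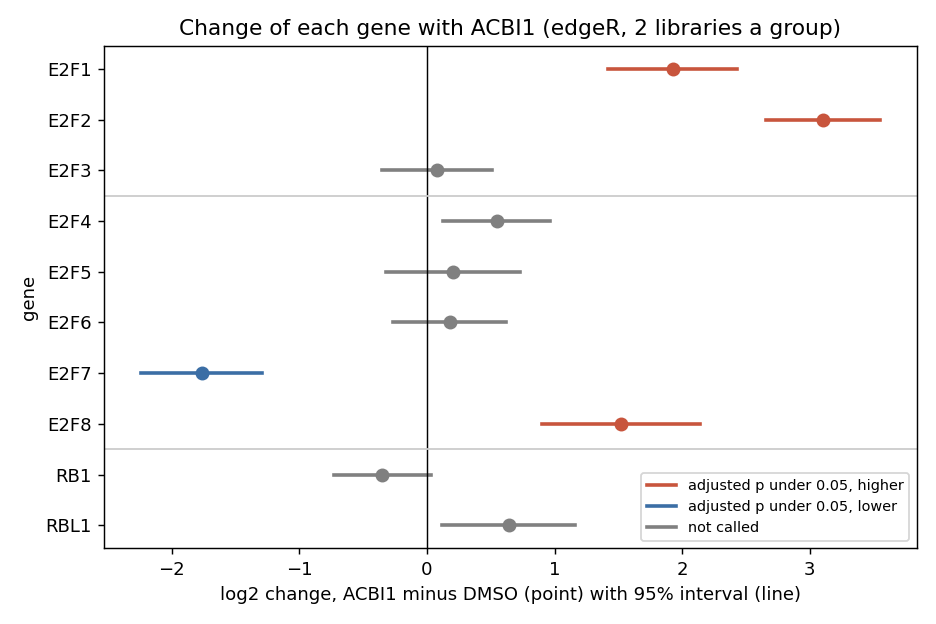
Log2 change of each gene, ACBI1 minus DMSO, with points for edgeR's estimate and lines for its 95% interval, not adjusted for the number of genes. The activators are at the top, the repressors in the middle and the pocket proteins at the bottom; E2F7 alone lies far to the left, at -1.76, while E2F8 lies at 1.52.

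The pocket protein genes moved less than the E2Fs that were called. RB1, which binds the activator E2Fs, had 52.9 and 60.7 CPM with DMSO and 44.4 and 44.8 CPM with ACBI1. Both ACBI1 libraries were lower, but RB1 was not called (log2 change -0.35, SE 0.16, 95% interval -0.73 to 0.03, edgeR adjusted p 0.175). RB1 lies at chr13:48303726-48599436 on the plus strand.

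RBL1, the p107 protein that binds E2F4 and is itself a known E2F target, had 44.8 and 31.0 CPM with DMSO and 61.9 and 56.1 CPM with ACBI1. Both ACBI1 libraries were higher, and the DMSO libraries were spread more widely. RBL1 was not called (log2 change 0.64, SE 0.21, 95% interval 0.12 to 1.16, edgeR adjusted p 0.0920). Without DMSO replicate 1 it was 0.93 and called (edgeR adjusted p 0.0127), and it was called with no filter on low counts (0.63, adjusted p 0.0212). RBL1 lies at chr20:36996349-37095995 on the minus strand.

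RBL2, the p130 protein of resting cells, was read for context and had a log2 change of -0.22 that was not called (edgeR adjusted p 0.352), with other exons over 18.2% of its exonic length. Per kilobase of exon, RBL2 held 53.3% and 56.1% of the signal of the 3 pocket genes with DMSO and 47.7% and 49.0% with ACBI1. The share of RB1 was 24.4% and 28.2% with DMSO and 20.8% and 21.7% with ACBI1, and that of RBL1 was 22.3% and 15.6% with DMSO and 31.5% and 29.4% with ACBI1. RBL2 was thus the most abundant pocket transcript in each library, RB1 was above RBL1 in both DMSO libraries, and RBL1 was above RB1 in both ACBI1 libraries.

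Levels can be compared between genes per kilobase. In the DMSO libraries E2F4 was highest, at 46.8 and 38.8 CPM per kilobase. E2F1 (19.7 and 14.9) and E2F7 (18.0 and 13.4) came next and did not differ beyond their spread. E2F3, E2F6, RB1 and RBL1 followed, between 5.20 and 10.1, with values that overlapped. E2F5 was at 3.06 and 3.52, and E2F8 (0.955 and 1.06) and E2F2 (0.878 and 0.835) were lowest.

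In the ACBI1 libraries E2F4 (62.5 and 62.8 CPM per kilobase) and E2F1 (59.4 and 72.0) were highest, and their values overlapped. E2F6, RBL1 and E2F3 lay between 9.12 and 11.5 and overlapped. E2F2 moved from rank 10 with DMSO to rank 6 with ACBI1, at 7.09 and 7.63, just above RB1 at 6.88 and 6.94. E2F7 moved from rank 3 to rank 8, at 4.75 and 4.50. E2F5 (3.24 and 4.36) and E2F8 (2.57 and 3.21) were lowest. With the longest transcript of each gene as its length, E2F4 was above E2F1 in all 4 libraries, and E2F7 was above E2F1 in DMSO replicate 1. E2F7 was also below E2F5 in ACBI1 replicate 2 by that length, at rank 9 (4.94 against 5.13 CPM per kilobase). By that length E2F2 was below RB1 in both ACBI1 libraries (7.46 and 8.02 against 9.26 and 9.35 CPM per kilobase) and at rank 7, so the order of E2F2 and RB1 turns with the length used.

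The activators made up a larger part of the E2F pool with ACBI1. Of the signal of all 8 E2F genes, in counts per kilobase of exon, E2F1 to E2F3 held 28.0% and 26.7% in the DMSO libraries and 47.5% and 51.4% in the ACBI1 libraries. Summed activator levels were 30.6 and 23.8 CPM per kilobase with DMSO and 76.6 and 88.7 with ACBI1. Summed repressor levels were 78.6 and 65.3 with DMSO and 84.5 and 84.1 with ACBI1, a much smaller difference. That sum joined parts that moved in opposite directions. E2F4 to E2F6 summed to 59.7 and 50.9 with DMSO and to 77.2 and 76.3 with ACBI1. E2F7 and E2F8 summed to 18.9 and 14.5 with DMSO and to 7.32 and 7.71 with ACBI1. Most of the activator signal came from E2F1, which held 18.0% and 16.7% of the pool with DMSO and 36.9% and 41.7% with ACBI1. The share of E2F7 was 16.5% and 15% with DMSO and 2.95% and 2.60% with ACBI1. That of E2F4 was 42.9% and 43.5% with DMSO and 38.8% and 36.3% with ACBI1. The level of E2F4 itself was higher in both ACBI1 libraries (62.5 and 62.8 CPM per kilobase, against 46.8 and 38.8 with DMSO), though not called. These shares are given without a test, since the smallest p that an exact permutation test can give with 2 libraries against 2 is 0.33.

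**Figure D3:**
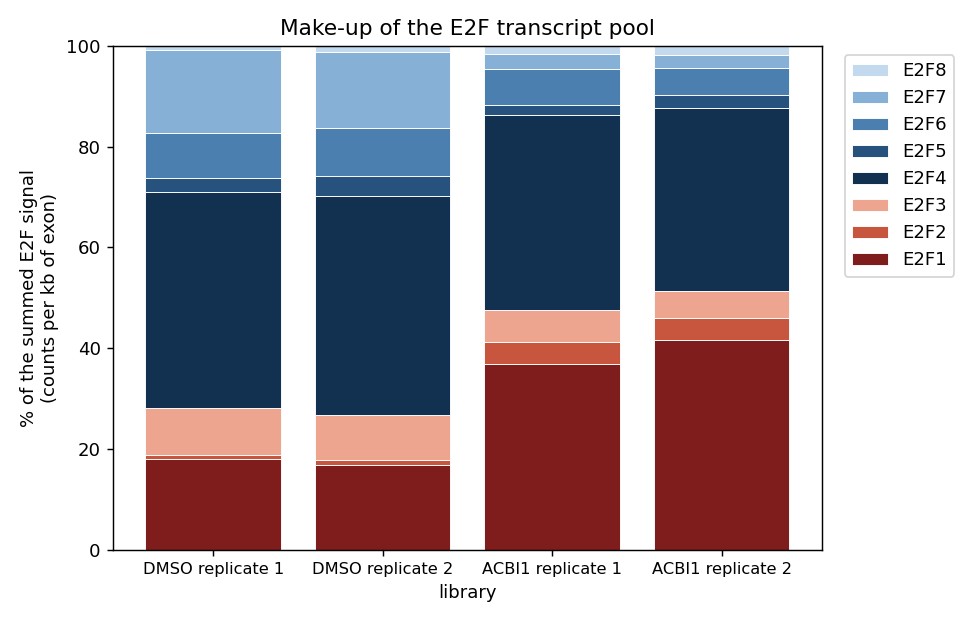
Share of each E2F gene in the summed E2F signal of a library, in % of counts per kilobase of exon, with activators in reds and repressors in blues. The activators fill 26.7% to 28.0% of the DMSO bars and 47.5% to 51.4% of the ACBI1 bars, and the band of E2F7 is narrower in both ACBI1 libraries.

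The DP proteins, with which E2F1 to E2F6 form dimers to bind DNA, were not called. TFDP1 had a log2 change of 0.46 (edgeR adjusted p 0.217) and TFDP2 one of 0.41 (edgeR adjusted p 0.230), and TFDP3 had 0 counts in each library. Single libraries moved both values: TFDP1 was at 0.10 without ACBI1 replicate 2 and 0.75 without ACBI1 replicate 1, and TFDP2 at 0.64 and 0.14 in the same order. With the replicate number as a block both were called higher (edgeR adjusted p 0.0469 and 0.0348). The MuvB and MYB list holds the core that E2F4 and pocket proteins join to make DREAM and the factors that replace them in cycling cells. Of its 8 genes, 2 were called higher and 0 lower, beside 6.75% and 10.6% over all genes tested. MYBL2, the B-MYB partner of MuvB, had 44.7 and 38.7 CPM with DMSO and 106 and 138 CPM with ACBI1 (log2 change 1.55, SE 0.19, edgeR adjusted p 0.00700). MYBL1 had a log2 change of 1.59 (edgeR adjusted p 0.00575). Both were called without each library in turn. FOXM1, which acts with MuvB in mitosis, had a log2 change of 0.76 that was not called (edgeR adjusted p 0.0801); it was called with DESeq2 (adjusted p 0.0335), with no filter on low counts (adjusted p 0.00318) and without DMSO replicate 2 (adjusted p 0.0497). The MuvB subunits LIN9 (0.48), LIN37 (-0.07), LIN52 (0.12), LIN54 (-0.01) and RBBP4 (0.19) had log2 changes that were not called.

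Among kinases and inhibitors upstream of the pocket proteins, 4 of 16 tested genes were called higher and 2 lower. Over all genes tested 6.75% were called higher and 10.6% lower, so the share called lower in this list is near that of all genes. CDKN1A, the p21 inhibitor of cyclin-dependent kinases, had 83.3 and 143 CPM with DMSO and 13.7 and 24.1 CPM with ACBI1 (log2 change -2.58, SE 0.37, edgeR adjusted p 0.00980). CDKN1B, the p27 inhibitor, had a log2 change of -1.20 (edgeR adjusted p 0.0151). CDK2, the kinase partner of cyclin E, had a log2 change of 0.94 (edgeR adjusted p 0.0153) and CDC25A, which activates it, one of 1.04 (edgeR adjusted p 0.0300). The other genes called higher, named after their values were seen, were SKP2, a ubiquitin ligase subunit that degrades p27 (log2 change 0.90, edgeR adjusted p 0.0348), and CCND2, a D-type cyclin with 1 and 0 counts under DMSO and 12 and 10 under ACBI1. CCND2 was not called without any 1 of the libraries, SKP2 was not called without DMSO replicate 2 or without ACBI1 replicate 2, CDKN1A was called without each library in turn, CDK2 and CDKN1B were not called without ACBI1 replicate 1, and CDC25A was not called without DMSO replicate 2 or without either ACBI1 library. Without DMSO replicate 2, ACBI1 replicate 1 or ACBI1 replicate 2, 1 gene of the list was called higher in each case; 4 were called lower without DMSO replicate 1 and 1 without ACBI1 replicate 1. CDKN2A, whose p16 product blocks the kinases that free E2F from RB1, had 2 and 7 counts with DMSO and 5 and 15 with ACBI1, too few to test; it was singled out after its values were seen.

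Most listed targets through which E2F drives S phase rose. Of 50 G1/S genes listed from general knowledge of E2F targets, all were tested, 41 were called higher and 0 lower. The list was chosen with earlier results of these data known, so its counts are not independent support. Each of the 50 had a positive log2 change, and the median was 1.23, beside 0.01 over all genes tested and 6.75% of them called higher. UNG, which removes uracil from DNA, had 48.4 and 43.1 CPM with DMSO and 186 and 173 CPM with ACBI1 (log2 change 1.97, SE 0.16, edgeR adjusted p 0.00259). POLE2, a subunit of DNA polymerase epsilon, had a log2 change of 1.89 (edgeR adjusted p 0.00532). TYMS, which makes thymidylate, had one of 1.88 (edgeR adjusted p 0.00384). Exons of other genes, ENOSF1 the most, overlap 46.6% of its exonic length. The 9 genes not called had log2 changes from 0.19 to 0.79. Between 25 and 41 of the list were called higher with 1 library left out, with the lowest number without ACBI1 replicate 1, and 0 were called lower.

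G2/M genes, which are bound by MuvB with B-MYB and FOXM1 rather than by E2F alone, moved less. Of 30 tested, 8 were called higher and 0 lower, 28 had a positive log2 change, and the median was 0.59. Over all genes tested 6.75% were called higher and 10.6% lower, and 9661 of 19159 had a positive log2 change. PLK4, the kinase of centriole duplication, had the largest called log2 change, 1.01 (edgeR adjusted p 0.0237), and ECT2, needed for cytokinesis, had one of 0.94 (edgeR adjusted p 0.0136). The kinetochore gene CENPF had one of 0.87 (edgeR adjusted p 0.0241) and the ubiquitin-conjugating enzyme gene UBE2C one of 0.99 (edgeR adjusted p 0.0384). This count depended on single libraries: 3 were called higher without DMSO replicate 2, 1 without ACBI1 replicate 1 and 0 without ACBI1 replicate 2, and 15 with no filter on low counts. The difference between the G1/S and G2/M lists was not tested. NUSAP1 and PRC1 had few counts (9 to 170 a library) and share over 58% of their exonic length with other genes, so they could not be judged.

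**Figure D4:**
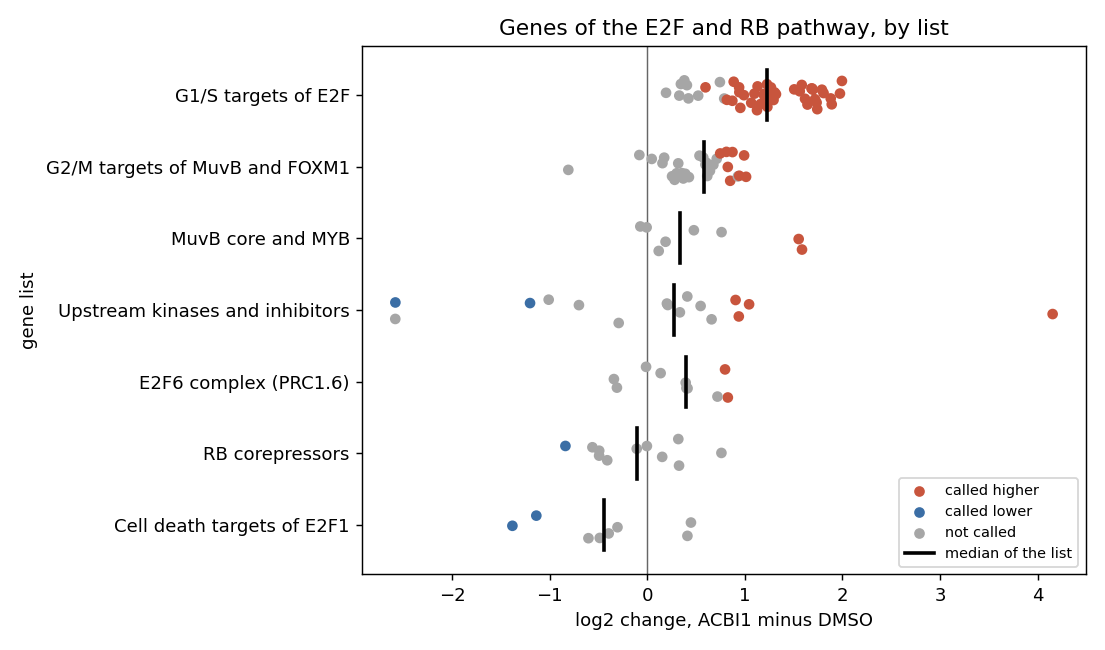
Log2 change, ACBI1 minus DMSO, of each tested gene in 7 lists of the pathway; red points were called higher, blue points lower and grey points not called, and bars mark list medians. All G1/S targets lie to the right of 0 with a median of 1.23, the G2/M targets have a median of 0.59, and the point at 4.15 is CCND2, which has 0 to 12 counts a library.

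The lists also differed in the letters of their promoters. They were chosen as targets of E2F or of MuvB and FOXM1, so this difference was in part fixed by that choice. Of 44 G1/S genes with a promoter window, 26 (59.1%) held an E2F match, and of 25 G2/M genes 3 (12.0%) did, beside 6.34% of all tested genes with a window. For the CHR element of MuvB, TTTGAA on either strand, the shares were 9.09% of the G1/S genes, 68.0% of the G2/M genes and 13.9% of all tested genes. Of the 26 G1/S genes with an E2F match, 22 were called higher, and of the 18 without a match, 14 were. Over all tested genes with a window, 12.4% of the 783 with an E2F match were called higher and 6.64% lower, and of the 11576 without a match 7.54% were called higher and 12.0% lower. The 97 genes called higher with a match include the 22 G1/S genes above, so these shares are not independent of that list. The median log2 change was 0.14 with a match and -0.01 without. For CHR the shares called higher were 7.80% with a match and 7.86% without. These shares were not tested.

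Lists tied to repression and cell death were read beside the 6.75% of all genes tested called higher and the 10.6% called lower. Of 10 genes of the E2F6 complex, a variant Polycomb complex, 2 were called higher and 0 lower: MGA, its DNA-binding scaffold (log2 change 0.83, edgeR adjusted p 0.0256), and RNF2, its ubiquitin ligase (0.80, edgeR adjusted p 0.0205). The 20% of this list that was called is near the 17.4% of all genes tested. Neither was called without ACBI1 replicate 1 or without ACBI1 replicate 2, and MGA was also not called without DMSO replicate 2. Of 16 germline genes that E2F6 or its complex is known to silence, 5 had enough counts to test. STAG3, a meiotic cohesin, was called higher (15 and 9 counts with DMSO, 128 and 57 with ACBI1, edgeR adjusted p 0.0155), and was not called without ACBI1 replicate 1. Other genes overlap 32.3% of its exons, and it was named after its values were seen. MOV10L1, a piRNA pathway helicase, was called lower (342 and 60 counts with DMSO, 20 and 2 with ACBI1, edgeR adjusted p 0.0432) and was not called without ACBI1 replicate 2 or with limma-voom; its log2 change of -4.22 ran from -6.28 to -2.62 with 1 library left out.

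Of 11 corepressor genes that act with RB1, 1 was called: ARID4B had a log2 change of -0.84 (edgeR adjusted p 0.0313) and was called without DMSO replicate 1 but not without any other library. That is 9.09% of the list, near the share called lower over all genes. Of 8 tested genes for cell death that E2F1 is known to activate, 0 were called higher and 2 lower. PMAIP1, the NOXA protein, had 166 and 173 CPM with DMSO and 70.9 and 59.1 CPM with ACBI1 (log2 change -1.38, SE 0.17, edgeR adjusted p 0.00673), and was called without each library in turn. TP73, the p53 relative known as an E2F1 target, had 1 and 0 counts with DMSO and 8 and 2 with ACBI1, too few to test.

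Some tested genes tracked single members closely. Likeness was the Euclidean distance between log2 CPM over the 4 libraries, each centred on its own mean, among the 11160 tested genes that averaged 5 CPM or more, and it rests mostly on the difference between the groups. Closest to E2F1 were NEIL2 (distance 0.108), TYMS (0.116) and GNAZ (0.130). Closest to E2F7 were FAM110B (0.0882), PSME1 (0.11) and PDLIM7 (0.123). Closest to RB1 were CD164 (0.0206), RPS27 (0.0222) and TAB2 (0.0262).

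Gene counts summed to 64281850 to 86010100 a library. The members had 315 to 20032 counts a library, with the fewest for E2F8 and E2F2 under DMSO. SMARCA4, SMARCA2 and PBRM1 transcripts, which do not report on degraded protein, were not called (log2 changes 0.70, -0.40 and 0.10). SMARCA4 was close to the threshold (edgeR adjusted p 0.0583) and was called higher under 5 of the 6 alternatives of scaling, filter and tool, with adjusted p from 0.00834 (no filter) to 0.0491 (limma-voom), and without DMSO replicate 1 (0.91, edgeR adjusted p 0.0186). Of 6 epithelial markers, KRT7, KRT8 and KRT18 were abundant with DMSO, CDH1 had 4 to 16 counts a library, and 4 of 5 tested were called lower. EPCAM, the fifth tested, was not called and had a log2 change of 1.32 (438 and 200 counts under DMSO, 1393 and 317 under ACBI1, edgeR adjusted p 0.179). The lung lineage markers NKX2-1 and SFTPA1 had 0 counts in each library and the 5 of that list summed to 0.112 to 0.334 CPM; the 5 leukocyte markers summed to 0.153 to 0.222 CPM, with CD3E at 0. Fibroblast markers (2 of 5 called lower) summed to 349 and 762 CPM with DMSO and 72.4 and 226 with ACBI1. Endothelial markers (2 of 2 tested called lower) summed to 12.6 and 48.5 CPM with DMSO and 0.0112 and 0.0458 with ACBI1, mostly from PECAM1, with CDH5 at 2 and 4 counts with DMSO and 0 with ACBI1. Over all genes tested, 10.6% were called lower. The epithelial, fibroblast and endothelial levels moved with treatment, and their part in the results was not tested. Reads outside annotated genes were 5.65% and 5.07% with DMSO and 6.05% and 6.24% with ACBI1, and their part was not tested either.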

How the data were processed

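RNA-seq read counts of 4 libraries were used. The authors deposited raw counts per gene symbol, not normalized; TopHat2 2.1.1, HTSeq 0.11.0 and build hg38 are named in the submitters' processing notes, while the annotation release and strand setting are not given in the sources used here. Without a known strand setting, overlapping genes can lose or share reads. The labels number the libraries as replicates; nothing says that they came from separate cultures, so p-values measure only the spread between these libraries, which may be technical. Replicates differed by more than sampling noise (chi-square per degree of freedom 146.5 for DMSO and 96.4 for ACBI1). Libraries in a group were grouped by title.

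The 5 closing lines for reads given to no gene were left out of library sizes and tests; gene counts made up 84.6% to 86.1% of the reads listed. Genes were filtered with filterByExpr (minimum count 10, minimum total 15), scaled by TMM and tested two-sided with edgeR 4.0.16 in R 4.3.3 (glmQLFit, glmQLFTest) on treatment alone, with Benjamini-Hochberg adjustment over 19159 genes. The SE is the log2 change divided by the square root of F, and the intervals are 95%. The script was tested on simulated counts. Exon lengths, overlaps and gene positions came from GENCODE 29, matched by symbol (59.5% of the symbols, all 10 members included). Promoters came from RefSeq (GRCh38.p14), which had windows for 8 of the members. Alternatives were other scalings, no filter, DESeq2 1.42.0, limma-voom (limma 3.58.1), the replicate number as a block, a threshold of 0.01, each library left out (the lone library is then assumed to vary like the other group) and other gene lengths.

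The members and lists were chosen with earlier results of these data known. All members were named; of each list, up to 4 called genes averaging 1 CPM or more were named by size of change, all genes of the DP, RBL2 and MuvB lists were named, and for E2F1, E2F7 and RB1 the 3 genes closest in pattern. Some genes that the naming rule selects are not reported here.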

Additional observations from a re-analysis of the deposited data

How the results depend on the processing

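E2F1, E2F2 and E2F7 kept their direction and were called under all 6 alternatives of scaling, filter and tool, with the block and without each library in turn; with 1 library left out their log2 changes ran from 1.74 to 2.14, 3.04 to 3.16 and -1.96 to -1.53. E2F8 was called in each of these fits except without ACBI1 replicate 2, with a range of 1.34 to 1.68. RBL1 ranged from 0.40 to 0.93, E2F3 from -0.075 to 0.25 and E2F5 from -0.035 to 0.42 with 1 library left out, so that E2F3 (without DMSO replicate 2) and E2F5 (without ACBI1 replicate 2) reversed, as did PBRM1 (-0.041 without DMSO replicate 2). E2F4 was called with library size only (0.64) and DESeq2 (0.55), and RBL1 with no filter (0.63).

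Calls over all genes numbered 3331 (1294 higher, 2037 lower), 5518 with no filter (2202 and 3316), 783 at a threshold of 0.01 (172 and 611) and, with 1 library left out, 1379 to 4292 (415 to 1651 higher, 964 to 2641 lower). Under scaling by library size only 1755 were higher and 1866 lower, which moves the share of falls. Among upstream kinases and inhibitors 4 were lower with no filter, and with 1 library left out 1 to 3 were higher and 1 to 4 lower. Of G2/M targets 15 were higher and 1 lower with no filter, 1 was lower with DESeq2, and with 1 library left out 0 to 10 were higher and 0 to 1 lower. Of G1/S targets 25 to 41 were higher with 1 library left out. The share of E2F1 to E2F3 in DMSO replicates 1 and 2 and ACBI1 replicates 1 and 2 was 24%, 22.8%, 41.2% and 44.8% by longest transcript, and 23.6%, 22.8%, 42.0% and 44.9% with no length scaling. The cause of these differences was not tested.

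The replicate numbers are shared by the groups, but the labels do not say that a number marks a shared batch; across genes, the difference of replicate 1 and 2 in DMSO correlated with that in ACBI1 at r = 0.517. With the replicate number as a block, 7909 of the 19159 genes tested were called (3708 higher, 4201 lower). With this block 5 members were higher and 2 lower, since E2F4 (0.55, adjusted p 0.00780), RBL1 (0.66, adjusted p 0.00217) and RB1 (-0.34, adjusted p 0.0425) were also called by edgeR, and no call on the other members changed. In this pairing 22 of 30 G2/M targets were higher and 1 lower, and of 16 upstream genes 6 were higher and 5 lower. Both DP genes, 4 of 8 MuvB and MYB genes, 5 of 10 genes of the E2F6 complex and 2 of 5 germline genes were higher. Of 11 corepressors 1 was higher and 5 lower, and of 8 cell death genes 2 were higher and 4 lower. More genes were called in both directions over all genes too, so these counts are not read as results about the lists. SMARCA4 (0.71, adjusted p 0.00248) and SMARCA2 (-0.40, adjusted p 0.0394) were also called by edgeR with the block. Depth gave each member at least 315 counts a library, and intervals cover the spread between these libraries only.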
